A study of Mus musculus with 4 samples.

Results

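Levels of 6 transcripts of the mouse kidney cortex were followed through 23 clusters of nuclei and 4 mice: Gm28153, Gm3448, Gm27003, 2900097C17Rik, Spag5 and Rcc1. They are 6 of the 19632 genes in a single nucleus RNA sequencing table and were picked by name because they stood among the largest rises in cluster 6, an injured proximal tubule cluster, over the proximal tubule clusters 0 to 4 in both mice given aristolochic acid I (AAI). AAI is a plant toxin that forms DNA adducts and injures the proximal tubule. The labels put 1 male mouse of mixed strain in each group. Control mice carried only TRE-hKLF6, a human KLF6 transgene under a tetracycline response element, and hKLF6OE mice carried CAG-rtTA,TRE-hKLF6, in which the doxycycline-dependent activator rtTA is driven throughout the body by the CAG promoter. Each genotype was sampled without AAI and 24 h after 1 intraperitoneal injection of 2 mg/kg AAI, and all 4 mice ate a diet with 200 mg/kg doxycycline. The study's methods give DMSO to uninjured mice, where the labels say that there was no treatment.

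With 1 mouse per condition there is no test, standard deviation or p-value, and every difference below is between single mice. Each value averages a gene's normalized expression within 1 cluster of 1 mouse, on a scale that sums to about 10000 over genes, and is written below as a level. Differences are of log2(level + 1), which understates the change of low genes. A gene entered a comparison where the larger side was at least 0.5, and was called higher or lower at a difference of 0.2 or more. The clusters are numbered as in the table. The order of the study's marker sheets gives clusters 0 to 4 as proximal tubule (0, 3 and 4 from segment S3) and cluster 6 as InjuredPT-A, and cluster 12, by its place in the study's order, as InjuredPT-B. Of 8 injured tubule markers, ranked by means over the 4 mice, cluster 6 was highest or second highest for 4 and cluster 12 for 3. In cluster 6 these were Klf6 (3.69), Cxcl1 (1.83), Myc (0.265) and Lcn2 (0.0283), the last 2 at low levels. The levels of Havcr1, the gene of kidney injury molecule 1, were low in both, with means of 0.0730 in cluster 6 and 0.382 in cluster 12. Uninjured mice are part of all these means. Neither depth nor nuclei numbers are known for any column. In uninjured mice 62.6% (control) and 40.8% (hKLF6OE) of genes were at 0 in cluster 6, against 22.5% and 22.2% with AAI, so the uninjured values of that cluster rest on sparse columns.

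Only 3 of the 6 are annotated as noncoding. Gm28153 and Gm27003 are antisense genes, transcribed from the strand opposite a protein-coding neighbour, and 2900097C17Rik is a lincRNA that RefSeq names Norad, a long cytoplasmic RNA known to be raised by DNA damage and to bind Pumilio proteins, which repress messenger RNAs. The other 3 encode proteins. Spag5 encodes astrin, a protein of the mitotic spindle and of kinetochores. Rcc1 encodes the nucleotide exchange factor that loads the small GTPase Ran with GTP on chromatin and so sets the direction of nuclear transport. Gm3448 belongs to the Tcte3 group of dynein light chain genes, whose products are known mainly from the motor that beats cilia and sperm tails.

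Positions and sequences are from GENCODE vM21 and RefSeq, both on GRCm38. Gm28153 lies at chr1:17741915-17805417 on the minus strand and overlaps 24430 bases of Crispld1, and Gm27003 lies at chr2:126675916-126683805 on the plus strand and overlaps the first 422 bases of Gabpb1. The last 100 bases of their spliced transcripts, of 629 and 497 bases, are printed because these 2 genes are known by number only; capitals mark AATAAA, the hexamer of polyadenylation signals, which starts 21 and 23 bases before the end.
Gm28153: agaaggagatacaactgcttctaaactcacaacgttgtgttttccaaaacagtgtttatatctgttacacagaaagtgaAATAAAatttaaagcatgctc
Gm27003: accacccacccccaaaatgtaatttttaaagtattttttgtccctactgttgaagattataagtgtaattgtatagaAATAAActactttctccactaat

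2900097C17Rik lies at chr2:156388065-156392979 on the minus strand, and its longest transcript has 4915 bases. The Pumilio element TGTANATA, searched on the transcript's own strand, occurred 11 times, the first starting at base 651 and the last at base 3526. Of 9686 other antisense, lincRNA and similar genes, each taken by its longest transcript, only Kcnq1ot1 held as many, with 18 in 93092 bases, and the 236 genes with a transcript of 4000 to 6000 bases held at most 4, with a median of 0. Neither Gm28153 nor Gm27003 held the element. The stretch from base 1334 to base 1633 is shown because it holds 3 of the 11, in capitals.
2900097C17Rik: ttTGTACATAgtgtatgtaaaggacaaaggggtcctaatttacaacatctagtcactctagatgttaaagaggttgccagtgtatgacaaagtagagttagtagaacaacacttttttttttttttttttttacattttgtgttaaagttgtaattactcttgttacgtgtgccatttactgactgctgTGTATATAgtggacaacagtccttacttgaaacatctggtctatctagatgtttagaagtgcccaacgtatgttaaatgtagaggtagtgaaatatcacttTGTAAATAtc

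RefSeq promoter windows of 300 bases, from 250 before to 50 after the start, were at hand for the 3 protein-coding genes. They are printed because these genes were all higher in cluster 6, as the choice of members required. Capitals mark the GC box GGGCGG, the CAAT box CCAAT and the AP-1 motif TGANTCA on either strand (GGGCGG on the opposite strand reads CCGCCC). The windows are chr17:15010135-15010434 for Gm3448 and chr4:132345701-132346000 for Rcc1, both on the minus strand, and chr11:78301341-78301640 on the plus strand for Spag5. The RefSeq starts of Gm3448 (15010184) and Rcc1 (132345750) lie inside their GENCODE genes, which start at 15041537 and 132353605.
Gm3448: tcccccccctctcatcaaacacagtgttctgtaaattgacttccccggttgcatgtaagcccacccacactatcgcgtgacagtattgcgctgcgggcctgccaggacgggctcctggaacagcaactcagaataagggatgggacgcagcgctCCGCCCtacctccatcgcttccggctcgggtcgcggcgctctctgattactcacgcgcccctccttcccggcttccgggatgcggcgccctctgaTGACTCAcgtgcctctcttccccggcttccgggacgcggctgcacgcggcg
Spag5: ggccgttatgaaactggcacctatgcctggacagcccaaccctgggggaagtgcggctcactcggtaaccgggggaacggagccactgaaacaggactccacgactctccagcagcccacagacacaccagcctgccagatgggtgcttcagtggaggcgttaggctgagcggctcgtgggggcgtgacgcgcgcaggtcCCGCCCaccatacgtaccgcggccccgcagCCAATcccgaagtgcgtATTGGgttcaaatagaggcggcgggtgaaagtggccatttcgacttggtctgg
Rcc1: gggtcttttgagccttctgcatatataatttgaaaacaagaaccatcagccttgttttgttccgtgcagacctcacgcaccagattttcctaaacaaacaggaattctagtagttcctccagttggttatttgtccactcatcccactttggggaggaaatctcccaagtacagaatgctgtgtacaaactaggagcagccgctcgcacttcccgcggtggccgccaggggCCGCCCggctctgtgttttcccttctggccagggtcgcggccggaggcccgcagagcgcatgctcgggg

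Each of the 3 held a single GGGCGG, which 35.7% of all 32851 windows hold. Spag5 had CCAAT 2 times (37.4% of windows), and Gm3448 had TGANTCA 1 time (7.81%), which spans the RefSeq start. CACCC, in 57.5% of windows, occurred in Gm3448 and Spag5, and the search found no TGACGTCA (1.79%) or TATAAA (13.6%) in any of the 3. CACCC and GGGCGG are letters that Krüppel-like and Sp factors are known to bind, but a match is a description of letters and no site.

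Annotation limits the reading of 2 of the rows. Rcc1, at chr4:132331919-132353605 on the minus strand in GENCODE, overlaps 5592 bases of Snhg3, a snoRNA host gene on the same strand. The RefSeq gene spans 132331919-132345750 and does not reach Snhg3, at 132348014-132353686 in GENCODE. Snhg3 has no row here, as few genes of its class do (8 of 788), so reads of Snhg3 and Rcc1 cannot be told apart. Gm3448, at chr17:14995787-15041537 on the minus strand in GENCODE, overlaps Tcte3 on the same strand, which has no row. Of the 30-base words of the 747-base transcript of Gm3448, 91.2% also occur in Tcte3 and 87.0% in Gm3417. Of those of its 2253-base transcript, 7.1% and 9.3% do. Introns were not compared. Gm3417 was at 0.365 and 0.290 in cluster 6 with AAI, and reads from the stretches that these genes share may be split or credited to 1 of them. Spag5, at chr11:78301529-78322457 on the plus strand, overlaps no other gene with a row.

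In cluster 6 all 6 transcripts were higher than in clusters 0 to 4 in both AAI mice, as the choice of members required, where 43.3% of 5008 genes were higher and 27.0% lower. All genes had medians of 0.19 and 0.15, and centring on them turned 2167 higher and 1350 lower genes into 1405 and 1832, with all 6 members still higher. These values chose the members and are given as a description. Gm28153 was at 10.8 in the control and 37.1 in the hKLF6OE mouse with AAI, against means of 0.960 and 1.84 in clusters 0 to 4 of the same mice. Spag5 was at 10.6 and 23.5 against 1.88 and 2.74. For both, cluster 6 was the highest of the 23 clusters with AAI, and the hKLF6OE mouse was well above the control. Gm3448 was at 16.9 and 12.2 against 1.61 and 1.60, and Gm27003 at 7.80 and 4.90 against 0.411 and 0.281. For these the control mouse was the higher. 2900097C17Rik stood at 5.53 and 5.13 against 0.439 and 0.435, and Rcc1 at 5.42 and 5.31 against 0.448 and 0.459, so that both differed little between the AAI mice. Ordered by the smaller of the 2 differences, the last member was Spag5 (2.01), at rank 11. Genes that are not members also stood above Spag5, among them Polr2a (rank 1, 3.16) and Klf6 (rank 3, 2.53), on which the study centres, and Cdkn1a (rank 10, 2.04). The first genes below Spag5 were Pcf11 and Vmp1, followed by Cnbd2 (1.94).

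**Figure D1:**
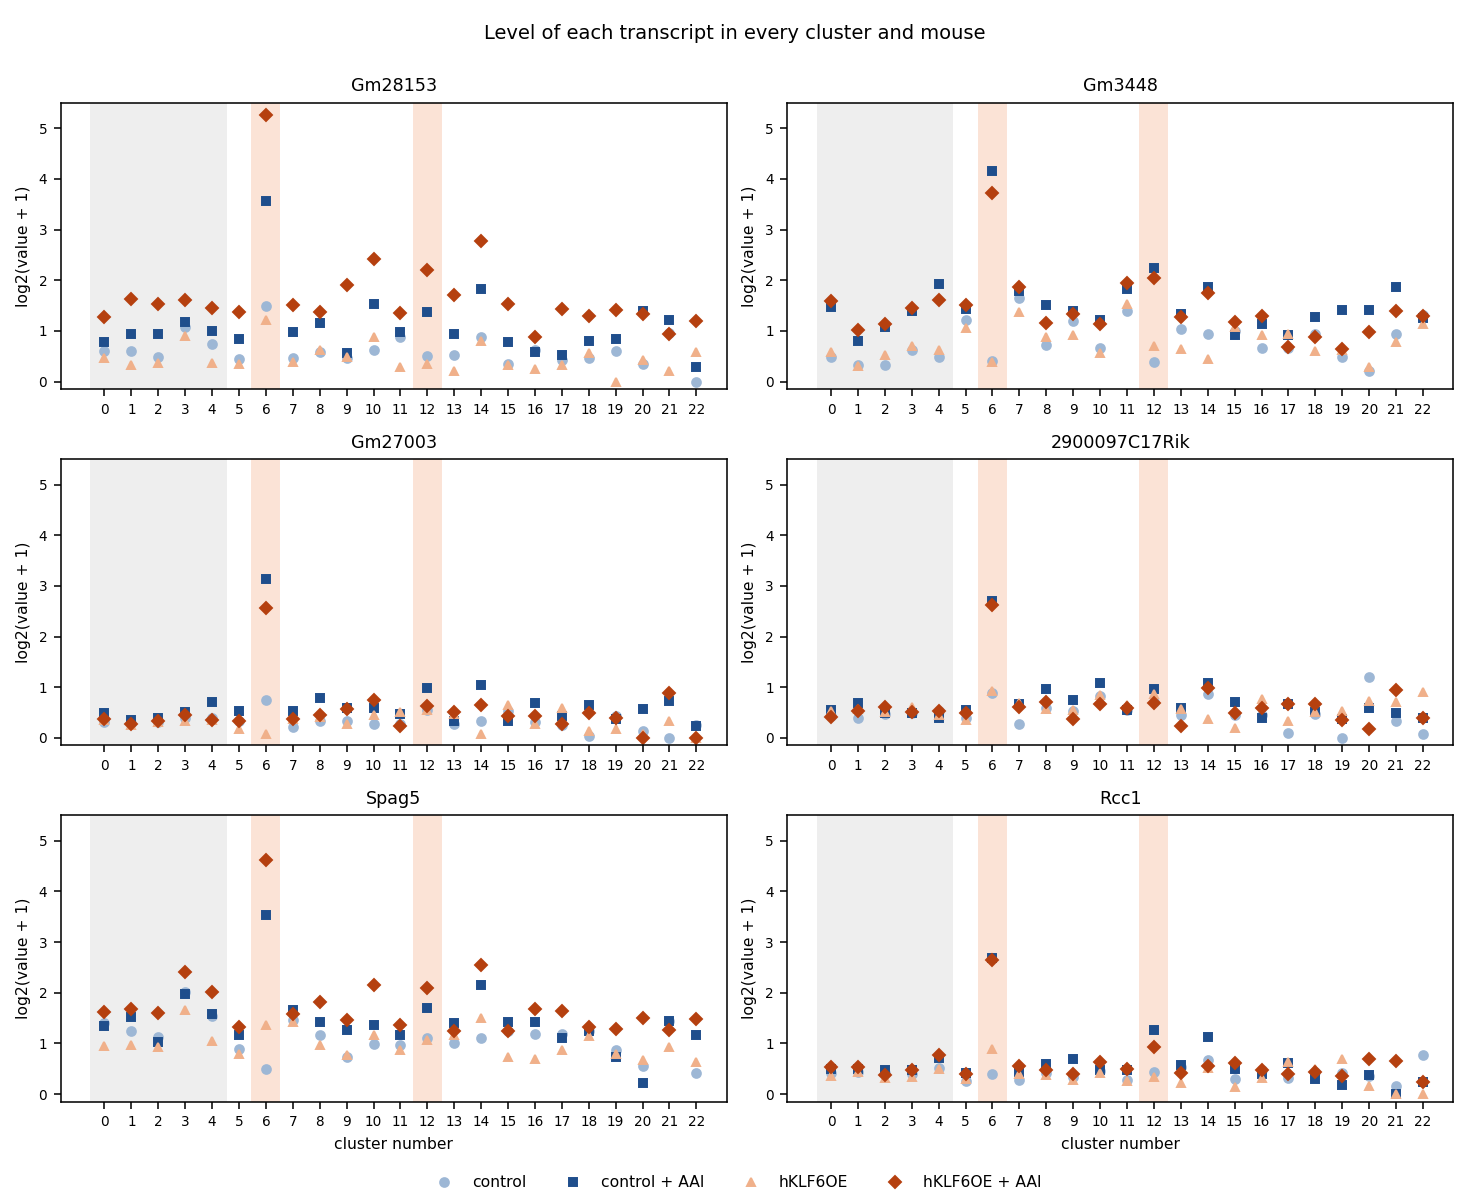
Level of each transcript as log2(level + 1) on the vertical axis in each of 23 clusters on the horizontal axis, with 1 point per mouse. Grey marks clusters 0 to 4 and orange the injured clusters 6 and 12; in all 6 panels the AAI mice (dark squares and diamonds) are highest in cluster 6, and Gm28153 reaches 37.1 in the hKLF6OE mouse.

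Without AAI the same cluster held little of most of them. In the control mouse cluster 6 had 1.83 of Gm28153, 0.857 of 2900097C17Rik, 0.669 of Gm27003, 0.415 of Spag5, and 0.320 of both Gm3448 and Rcc1. In the hKLF6OE mouse it had 1.33 of Gm28153, 0.891 of 2900097C17Rik, 0.0475 of Gm27003, 1.57 of Spag5, 0.302 of Gm3448 and 0.862 of Rcc1. Against clusters 0 to 4, Gm28153 and 2900097C17Rik were higher in both uninjured mice, 2 of the 3 members that passed the minimum, where 21.5% of genes were higher and 28.9% lower. Through cluster 6 alone, 2900097C17Rik passed in both mice and Gm28153 in the hKLF6OE mouse. Cluster 6 was already the top cluster of Gm28153 in both mice.

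The uninjured kidney placed the transcripts in different clusters. Gm3448 was highest in the thick ascending limb-like clusters 7 (2.13 in the control and 1.59 in the hKLF6OE mouse) and 11 (1.63 and 1.88), against 0.376 and 0.465 in clusters 0 to 4. Spag5 was highest in cluster 3, a segment S3 cluster, at 3.06 and 2.15. Before injury these 2 genes were thus highest in a tubule cluster other than 6, and with AAI cluster 6 passed it. Gm27003, 2900097C17Rik and Rcc1 were low, with outside means of 0.209 to 0.508 in the uninjured mice. In the control their highest clusters of all 23 were 6 (0.669), 20 (1.29) and 22 (0.698), and in the hKLF6OE mouse 15 (0.578), 6 (0.891) and 6 (0.862), so that the top cluster differed between the mice for each. Clusters 6, 20 and 22 of the control are sparse, with 62.6%, 49.7% and 62.0% of genes at 0.

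In cluster 12, the other injured cluster, Gm28153, Gm3448, Gm27003 and Rcc1 were higher than in clusters 0 to 4 in both AAI mice, 4 of 6 members where 23.4% of 4148 genes were higher and 13.1% lower. Centring on the medians of 0.11 and 0.10 turned 971 higher and 543 lower genes into 379 and 778, and ended the call of Gm27003. The clusters 0 to 4 of this comparison are those the choice of members used. Gm27003, 2900097C17Rik and Rcc1 passed the minimum through cluster 12 alone, with means of 0.281 to 0.459 in clusters 0 to 4. Gm3448 stood at 3.74 and 3.13 in cluster 12 of the control and hKLF6OE mice, second to cluster 6 in both. Rcc1 stood at 1.39 and 0.894, again second. Gm28153 had 1.60 and 3.58, and Gm27003 had 0.971 and 0.547. The remaining pair was not called, with 2900097C17Rik at 0.941 and 0.609 and Spag5 at 2.27 and 3.30 against 1.88 and 2.74.

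In clusters 0 to 4, Gm28153 and Gm3448 were higher with AAI than without in both genotypes, and Spag5 in the hKLF6OE mouse alone. Gm3448 went from 0.376 to 1.61 in the control and from 0.465 to 1.60 in the hKLF6OE mouse, and was higher in 5 of 5 clusters in each genotype. Gm28153 went from 0.645 to 0.960 in the control and from 0.417 to 1.84 in the hKLF6OE mouse. Spag5 was at 1.83 without and 1.88 with AAI in the control, a difference of 0.02, and went from 1.20 to 2.74 in the hKLF6OE mouse. The rise of Gm3448 was thus alike in size in both genotypes, 0.92 and 0.83, while those of Gm28153 were 0.25 and 1.00. In counts, 2 of the 3 members that passed were higher in the control, where 475 (11.7%) of 4052 genes were higher and 456 lower, and 3 of 3 in the hKLF6OE mouse, where 19.5% were higher and 15.4% lower. With clusters 0, 3 and 4 alone the control's difference in Gm28153 came to 0.17 and only Gm3448 was called. The AAI side of both comparisons was part of the choice of members. Gm3448 in both genotypes, and Gm28153 in the hKLF6OE mouse, passed the minimum through that side alone, which favours a call of higher. Gm27003, 2900097C17Rik and Rcc1 stayed under the minimum of 0.5, between 0.248 and 0.459 in all 4 mice.

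The same 3 were higher with AAI in the mean of the 16 clusters outside the proximal tubule, 3 of 4 members that passed in each genotype, where 12% of genes were higher and 9.11% lower in the control and 20.0% and 14% in the hKLF6OE mouse. No value of these clusters entered the choice of members. Gm28153 passed the minimum through its AAI side alone in both genotypes, which favours a call of higher. Gm28153 went from 0.471 to 1.01 in the control and from 0.352 to 2.06 in the hKLF6OE mouse, where it ranked 3 of 4635 genes by its difference of 1.18. Gm3448 went from 0.978 to 1.72 and from 0.859 to 1.49. Spag5 went from 1.08 to 1.50 and from 0.960 to 2.04, and without cluster 14 its difference in the control, 0.27, came to 0.20, just under the threshold. Gm28153 and Gm3448 were thus raised by a like amount in the control, and Gm28153 by more in the hKLF6OE mouse. 2900097C17Rik, which passed the minimum, differed by 0.16 and -0.02, and Gm27003 and Rcc1 did not pass, although Gm27003 went from 0.209 to 0.481 in the control.

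**Figure D2:**
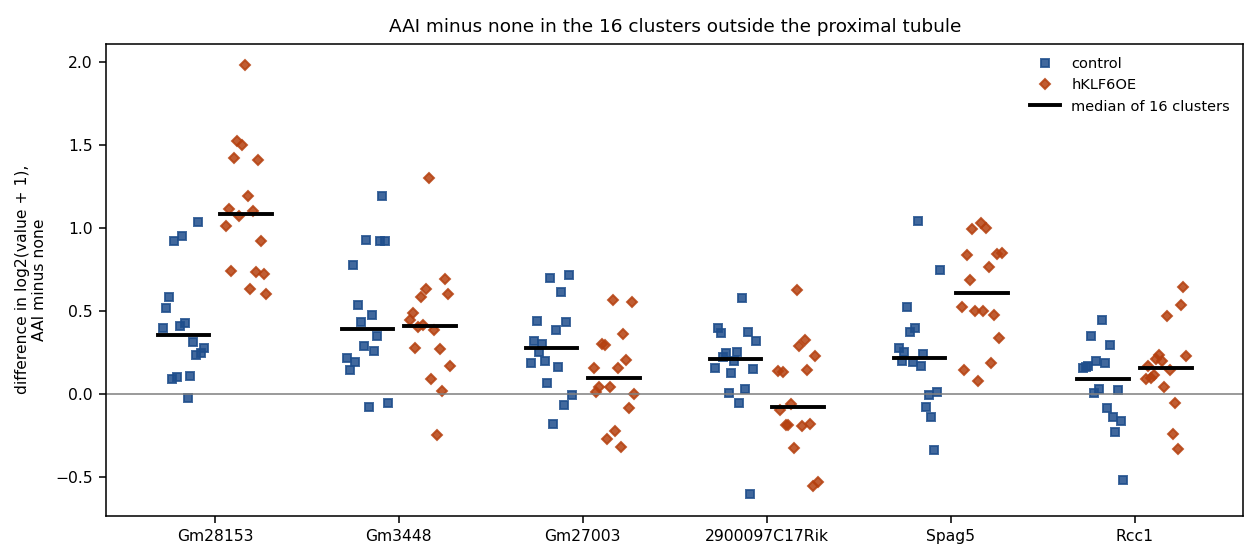
Difference in log2(level + 1), AAI minus none, on the vertical axis for each transcript on the horizontal axis, with 1 point for each of the 16 clusters outside the proximal tubule, squares for control and diamonds for hKLF6OE, and the median as a bar. All 16 hKLF6OE points of Gm28153 lie between 0.61 and 1.98.

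Cluster by cluster, Gm28153 was higher with AAI in 16 of 16 outside clusters of the hKLF6OE mouse and in 11 of 13 that passed in the control, where 32.3% and 28.6% of all gene and cluster pairs were higher. Without AAI it reached 0.5 only in clusters 8, 10, 14 and 22 of the hKLF6OE mouse and 10, 11, 14, 16, 19 and 21 of the control. The other clusters that passed did so through the AAI side alone, which favours a call of higher. Clusters of 1 mouse are not replicates. Spag5 was higher in 13 of 16 and in 8 of 15, and Gm3448 in 12 of 16 in each genotype. The largest outside level of Gm28153 with AAI was in cluster 14, at 5.87 in the hKLF6OE and 2.57 in the control mouse, against 0.737 and 0.844 without AAI. Cluster 14 led 4 of 4 fibroblast markers, and it was first or second for 4 of 6 macrophage and 3 of 5 mesangial markers, so it is called by its number. Endothelial-like cluster 10 followed, at 4.32 and 1.91 against 0.844 and 0.533. Spag5 had the same order with AAI in the hKLF6OE mouse outside the proximal tubule, 4.82 in cluster 14 and 3.48 in cluster 10.

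Transcripts of the proximal tubule were also found outside it. The 6 listed markers of its segments S1 and S2 were Slc5a2, Slc5a12, Slc34a1, Lrp2, Slc4a4 and Slc7a7. Their outside means were 19.8% to 48.8% of their level in clusters 0 to 4 over all 4 mice, and 19.8% to 38.4% in the AAI mice. The outside means of the 6 members in the AAI mice were 5.56% to 14.2% of their level in cluster 6, and the AAI minus none difference of the outside mean was -0.406% to 5.14% of that level. RNA of cluster 6 nuclei found free in droplets, and expression in the outside nuclei themselves, cannot be told apart in these means. The same holds for clusters 0 to 4. There Gm28153 with AAI was at 0.960 (control) and 1.84 (hKLF6OE), near its outside means of 1.01 and 2.06. In the 7 outside clusters with under 40% of genes at 0 in all 4 mice, 5 members were higher with AAI in the control, where 10.8% of 4415 genes were higher and 7.93% lower, since Gm27003 (0.30) and 2900097C17Rik (0.20) joined the other 3. Gm27003 went from 0.227 to 0.514 there and so passed the minimum through its AAI side alone, as did 2900097C17Rik, from 0.439 to 0.657. In the hKLF6OE mouse neither joined them.

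The genotypes differed most in Gm28153 and Spag5, with opposite directions without and with AAI in clusters 0 to 4. In clusters 0 to 4 without AAI, hKLF6OE was lower than control for Gm28153 (0.417 against 0.645, a difference of -0.22) and Spag5 (1.20 against 1.83, -0.37), which were the 2 members that passed, where 9.33% of genes were lower and 7.84% higher. Gm28153 passed the minimum through the control side alone, which favours a call of lower. Centred on the median of all genes (-0.03), the difference of Gm28153 came to -0.19 and was no longer called, and Spag5 was the 1 member left. With AAI both were higher in the hKLF6OE mouse, by 0.54 (1.84 against 0.960) and 0.38 (2.74 against 1.88), 2 of 3 members where 6.32% of genes were higher and 7.74% lower. By this difference Gm28153 ranked 17 and Spag5 55 of 3942 genes. The clusters 0 to 4 values of both AAI mice were part of the choice of members, so these ranks are a description. Cluster by cluster without AAI, Spag5 was lower in 5 of 5 and Gm28153 in 2 of the 4 that passed, where 11.9% of all gene and cluster pairs were lower and 9.39% higher. In clusters 0, 1 and 4 Gm28153 again passed the minimum through the control side alone. With AAI Gm28153 was higher in 5 of 5 and Spag5 in 4 of 5, where 11.7% of pairs were higher and 11.8% lower. The third member that passed, Gm3448, differed by less than 0.01 with AAI. The difference between the 2 genotypes' AAI responses cannot be tested with 1 mouse in each group.

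**Figure D3:**
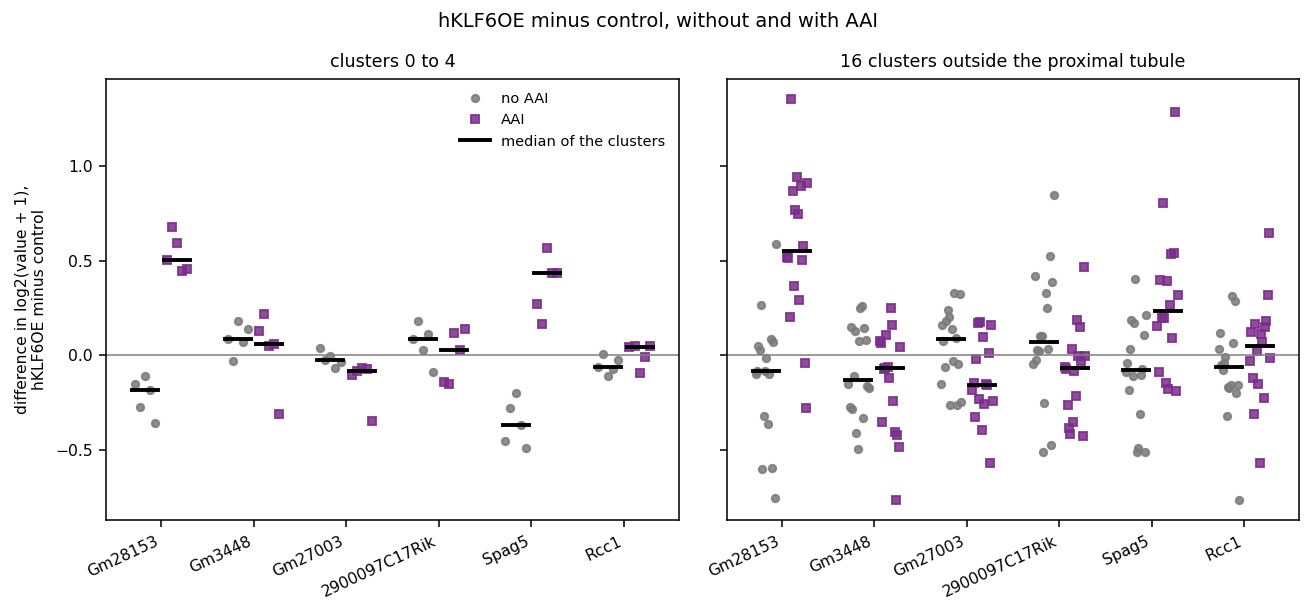
Difference in log2(level + 1), hKLF6OE minus control, on the vertical axis for each transcript, with circles without AAI and squares with AAI, 1 point per cluster and the median as a bar, for clusters 0 to 4 (left) and the 16 clusters outside the proximal tubule (right). In clusters 0 to 4 the medians of Gm28153 (-0.18 and 0.50) and Spag5 (-0.37 and 0.44) lie on opposite sides of 0.

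Outside the proximal tubule none of the 3 members that passed was called between genotypes without AAI, where 7.46% of genes were higher and 10.7% lower. With AAI Gm28153 (2.06 against 1.01, a difference of 0.61, rank 7 of 4496) and Spag5 (2.04 against 1.50, 0.28, rank 62) were again higher in hKLF6OE, 2 of 4 members where 3.74% of genes were higher and 6.96% lower. Cluster by cluster Gm28153 was so in 14 of 16 and Spag5 in 8 of 16, where 23.9% of all gene and cluster pairs were higher and 27.4% lower. Cluster 6 of the AAI mice held 10.8 (control) and 37.1 (hKLF6OE) of Gm28153, and 10.6 and 23.5 of Spag5. RNA of cluster 6 nuclei found free in droplets and expression in the outside nuclei cannot be told apart here either. In cluster 6 with AAI, whose values the choice of members used, Gm28153 differed by 1.69, rank 2 of 5253 genes, and Spag5 by 1.08, rank 14, while Gm3448 was lower by -0.44 and Gm27003 by -0.58. There 13.1% of genes were higher and 22.3% lower. The 2 members at nearly the same level in both mice were 2900097C17Rik (-0.09) and Rcc1 (-0.03).

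Over the 92 columns of cluster and mouse, the genes most like Gm28153 by Pearson's r of log2(level + 1) were Cacna2d4 (0.90), a calcium channel subunit gene, Cdkn1a (0.88), which encodes the cell cycle inhibitor p21, and Mad1l1 (0.87), of the spindle checkpoint. Without the 4 columns of cluster 6 these were 0.81, 0.79 and 0.74. The genes most like Spag5 were Gm28153 (0.84), Cacna2d4 (0.83) and Slc23a3 (0.80), and the pair Spag5 and Gm28153 had r = 0.70 over the 64 outside columns. The other pairs of members had 0.08 to 0.44 there. Without cluster 6 the 3 genes most like Spag5 had 0.72, 0.63 and 0.58. Gm3448 was most like Tra2a (0.82), Zfp281 (0.81) and Gm4577 (0.79), which had 0.65, 0.64 and 0.60 without cluster 6. For the remaining 3 members the likeness lay largely in the 4 columns of cluster 6, whose AAI values the choice of members used. Rcc1 was most like Mcm7 (0.87), a subunit of the replicative helicase, but without cluster 6 this was 0.48 and Mcm7 ranked 44 of 11444 genes. Gm27003 was most like Gm34921 (0.89), Syngr3 (0.88) and Gm4577 (0.88), which came to 0.53, 0.51 and 0.46. 2900097C17Rik was most like Lsmem1, Gm48089 and Gm34921 (all 0.82), which came to 0.36, 0.39 and 0.44 and ranked 436, 295 and 100. The columns share mice and clusters and may differ in depth, so these are descriptions.

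Few other genes of mitosis were measured at a level to compare with Spag5. Of 30 other spindle and mitosis genes only 4 reached the minimum in cluster 6 against clusters 0 to 4 with AAI; Dynll1, a dynein light chain gene, was higher and Clasp1, Ckap5 and Numa1 were lower. The median of the 4 was -0.24 and -0.35, against 0.19 and 0.15 over all genes. The other 26 stayed under the minimum, the highest of them in cluster 6 being Nusap1 at 0.177 in the control and 0.272 in the hKLF6OE mouse, against 0.0562 and 0.0449 in clusters 0 to 4. Of these 26, 11 had a higher level in cluster 6 than in clusters 0 to 4 in both AAI mice, 3 had a lower one in both, and 12 did neither. These 26 were counted by sign alone, and no matching share of all genes under the minimum was computed. Of all genes that passed the minimum in this comparison, 43.3% were called higher and 27.0% lower. Of 21 Ran cycle and nuclear transport genes that passed, 12 were higher and 3 lower, with medians of 0.34 and 0.22; those higher included the importin genes Kpna4 (4.20 against 1.48 in the control) and Ipo7 (1.25 against 0.456) and the exportin gene Xpo1 (2.31 against 1.00). Xpo7 was lower, at 1.06 against 2.51. Of 14 dynein and dynactin genes 9 were higher and 1 lower, with medians of 0.40 and 0.35. Of 11 listed long noncoding RNAs and snoRNA hosts 3 were higher and 6 lower, with medians of -0.33 and -0.43. Among all annotated antisense and lincRNA genes 74 of the 123 that passed were higher (60.2%), against 42.9% of protein-coding genes. Reaching the minimum only on the higher side favours a call of higher without fixing it, and few of the 3375 noncoding rows passed.

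Within 100 kb of the 6 genes lay 39 other genes with a row, of which 17 passed the minimum in cluster 6 against clusters 0 to 4 with AAI, 10 higher and 5 lower, where 43.3% of all genes were higher and 27.0% lower. Most of the 10 higher, Gabpb1 among them, passed through cluster 6 alone, which favours a call of higher. Some of the 5 lower, Epb41l1 among them, passed through clusters 0 to 4 alone, which favours a call of lower. Gabpb1, which encodes a subunit of the transcription factor GABP and starts head to head with Gm27003, was at 2.02 and 1.66 in cluster 6 against 0.423 and 0.387. Both genes of this pair were higher in cluster 6 of both AAI mice. Cnbd2, a gene of the opposite strand that lies 12427 bases from 2900097C17Rik, was at 6.51 and 5.91 against 0.824 and 0.799. Crispld1, which Gm28153 overlaps, was near 0, at 0.0301 and 0.0481, where Gm28153 was at 10.8 and 37.1.

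**Figure D4:**
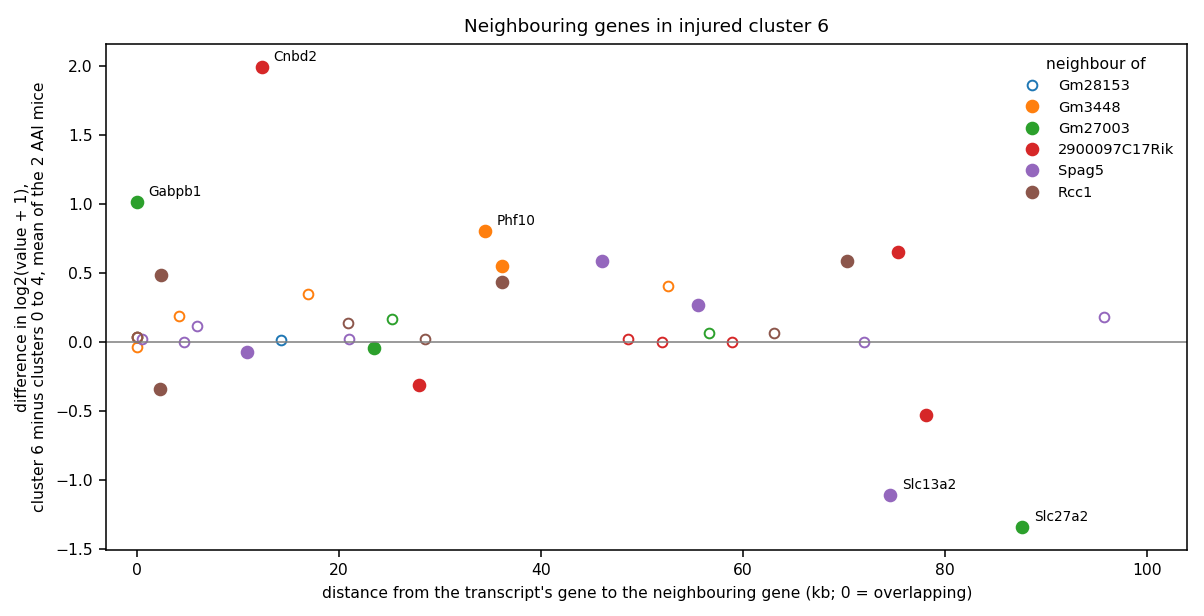
Difference in log2(level + 1), cluster 6 minus clusters 0 to 4 as the mean of the 2 AAI mice, on the vertical axis against the distance in kb between the transcript's gene and each neighbouring gene on the horizontal axis, coloured by transcript; open circles did not reach the minimum. Cnbd2 and Gabpb1 are the highest of the 39 neighbours.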

How the data were processed

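Nuclei of kidney cortex from 4 mice were sequenced on the 10X Chromium system, with all libraries prepared together. The authors aligned reads to a mouse pre-mRNA reference (mm10 in the submitters' processing notes) with Cell Ranger, kept genes found in at least 3 cells and nuclei with 200 to 6000 genes and at most 10% mitochondrial genes, and clustered them in Seurat. Doublet removal and the use of strand in counting were not given in the sources used here. The deposited table holds a signal, the mean normalized expression per cluster and mouse, in 92 columns that sum to about 10000. The function that made it, depths and nuclei per column are unknown, so no interval can be given. Names that a spreadsheet had turned into dates (23 of 19632) were left out.

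Differences of log2(value + 1) were computed with Python 3.11.15, numpy 2.4.6 and pandas 2.3.3 for 8 planned and 4 added comparisons, with a minimum of 0.5 and a threshold of 0.2, and the code was tested on simulated data. With 1 mouse per condition no test was run. Means over clusters weight clusters equally. The members and gene lists were chosen with earlier results of these data known. The genes named are the 6 members, the 3 genes most like each, the genes next to them and the extremes of each list; Ipo7, Xpo1, Nusap1, Ckap5 and Numa1 were named after their values were seen. Sequences were read from GENCODE vM21 and RefSeq GRCm38.p6, in which 4 of the 6 genes matched by name or position, and promoter windows were at hand for 3.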

Additional observations from a re-analysis of the deposited data

Results flagged for a closer look

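In clusters 0 to 4, 2 transcripts were called in opposite directions between the genotypes without and with AAI. Gm28153 differed by -0.22 (hKLF6OE minus control, log2 scale) without AAI and by 0.54 with AAI. Spag5 differed by -0.37 without AAI and by 0.38 with AAI. Each value compares 1 mouse with 1 mouse, and the difference between the 2 was not tested. The value of Gm28153 without AAI lay just past the threshold of 0.2 and came to -0.19 when differences were centred on the median of all genes. Without AAI Gm28153 passed the minimum of 0.5 through the control side alone, which favours a call of lower.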

How the results depend on the processing

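No paired analysis was possible because each condition holds 1 mouse and no result comes from a test. Of 101 recomputed counts of members, 72 stayed within 1.5 times the reported count and 29 did not, and no member that was called turned its direction. The 6 members higher in cluster 6 with AAI remained 6 under every alternative tried; this count was fixed by their choice. At a log2 threshold of 0.5, the members called fell to 1 of 4 in cluster 12, 1 of 2 for AAI in clusters 0 to 4 of the control, 0 of 3 for AAI outside the proximal tubule in the control, 0 of 2 for hKLF6OE against control in clusters 0 to 4 without AAI, and 1 of 2 with AAI there, with AAI outside, lower in cluster 6, and in cluster 6 without AAI. At a threshold of 1, 1 was left in each AAI comparison of the hKLF6OE mouse and 0 in these others. A minimum of 2 left 1 in cluster 12, 1 for AAI in clusters 0 to 4 of hKLF6OE and 1 for hKLF6OE against control there with AAI, and 0 for AAI in clusters 0 to 4 and outside in the control, for the genotypes without AAI and for cluster 6 without AAI. Clusters 0, 3 and 4 alone left 1 for AAI in the control, since Gm28153 came to 0.17. Centring left 3 in cluster 12 and 1, Spag5, for the genotypes without AAI. A pseudocount of 0.1 made 1 member, 2900097C17Rik, higher in hKLF6OE outside without AAI. Centring also turned the split of all genes, higher to lower, from 807 and 636 to 597 and 793 for AAI in clusters 0 to 4 of hKLF6OE, from 562 and 425 to 440 and 508 outside in the control, and from 926 and 649 to 543 and 855 outside in hKLF6OE. For hKLF6OE against control it went from 317 and 377 to 377 and 300 in clusters 0 to 4 without AAI, from 346 and 496 to 491 and 292 outside without AAI, and from 689 and 1174 to 954 and 794 in cluster 6. The choice of 7 outside clusters and of leaving out cluster 14 was made after seeing the data; for AAI in the control the former gave 5 members and the latter 2, and all other counts of members were the same. Beyond the changed threshold, minimum or set of clusters itself, the cause was not tested. Unknown depth and nuclei numbers limit every low value, and levels under the minimum of 0.5 show no change either way.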
